A study of Mus musculus with 20 samples.

Results

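Most of the 46 genes described here encode enzymes of fatty acid breakdown, or proteins that build peroxisomes, the organelles where part of it takes place. Others encode further peroxisomal enzymes, such as catalase (*Cat*) and amino acid oxidases (*Dao* and *Pipox*). The genes were taken by gene symbol from a table of 13842 protein-coding genes, with a list of symbols that was drawn up when earlier results of these data were known. Of the 46, 19 act in mitochondrial oxidation, 16 in peroxisomal oxidation and 11 in peroxisome biogenesis. The values came from the left kidneys of 20 male mice, 5 in each of 4 groups, taken 7 days after unilateral ureteral obstruction (UUO), in which the left ureter is tied off, or after sham surgery without the tie. KDM6A Ctrl mice carried Pax8-Cre, a recombinase active along the kidney tubule, with no floxed *Kdm6a* allele in their labels. KDM6A TubKO mice carried the same recombinase with a floxed *Kdm6a* allele on their single X chromosome (Kdm6a fl/Y), so that the exon coding for the JmjC domain is removed from tubule cells. All 4 groups therefore carried the recombinase, there was no group without it, and the ages of these mice were not given in the sources used here. RNA was taken from whole-kidney homogenates, so that fewer cells of a type and less RNA per cell cannot be told apart.

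Fatty acid β-oxidation removes carbon units from an activated fatty acid through repeated rounds of dehydrogenation, hydration, a second dehydrogenation and thiolysis. Mitochondria take most of the load, and fatty acids reach them through a carnitine shuttle. Peroxisomes start on very long-chain, branched and dicarboxylic fatty acids, and release hydrogen peroxide, which catalase removes. Proteins called peroxins, encoded by *Pex* genes, make the peroxisomal membrane and carry enzymes across it. In the kidney these pathways are best known from the proximal tubule, which relies on fatty acids for energy. Many of their genes are targets of PPARα, a nuclear receptor that binds fatty acids.

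Because *Ehhadh* had the largest fall after UUO, *Hao2* differed most between the genotypes in sham kidneys, and *Cat* had the highest mean level in KDM6A Ctrl sham kidneys, the DNA around their start sites is shown, with that of 2 genes of the mitochondrial route, *Acadm* and *Cpt1a*, that were chosen because they hold the letters searched for. Each stretch runs from 250 bases before to 50 bases after the RefSeq start site, 5′ to 3′ on the strand of the gene, in the GRCm38.p6 build. Capitals mark AGGTCA, the half-site that nuclear receptors of this family read, or its complement on the other strand, TGACCT.

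Ehhadh, chr16:21787785-21788084, minus strand: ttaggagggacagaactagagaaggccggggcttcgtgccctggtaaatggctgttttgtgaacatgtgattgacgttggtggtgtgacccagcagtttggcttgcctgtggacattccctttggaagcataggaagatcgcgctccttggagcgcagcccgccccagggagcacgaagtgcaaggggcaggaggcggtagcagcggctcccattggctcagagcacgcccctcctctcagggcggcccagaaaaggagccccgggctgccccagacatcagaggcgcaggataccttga

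Hao2, chr3:98893181-98893480, minus strand: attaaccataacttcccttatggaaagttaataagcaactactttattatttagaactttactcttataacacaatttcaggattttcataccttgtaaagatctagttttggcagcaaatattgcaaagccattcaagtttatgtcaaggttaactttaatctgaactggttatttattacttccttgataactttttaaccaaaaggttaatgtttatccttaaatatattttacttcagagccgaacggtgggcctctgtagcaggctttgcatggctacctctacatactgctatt

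Cat, chr2:103485104-103485403, minus strand: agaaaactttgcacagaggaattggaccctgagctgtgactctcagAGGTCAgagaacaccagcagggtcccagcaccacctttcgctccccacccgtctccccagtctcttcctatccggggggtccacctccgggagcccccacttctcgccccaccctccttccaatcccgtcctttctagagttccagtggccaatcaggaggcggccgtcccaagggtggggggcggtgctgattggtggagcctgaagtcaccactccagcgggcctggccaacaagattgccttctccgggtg

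Acadm, chr3:153944594-153944893, minus strand: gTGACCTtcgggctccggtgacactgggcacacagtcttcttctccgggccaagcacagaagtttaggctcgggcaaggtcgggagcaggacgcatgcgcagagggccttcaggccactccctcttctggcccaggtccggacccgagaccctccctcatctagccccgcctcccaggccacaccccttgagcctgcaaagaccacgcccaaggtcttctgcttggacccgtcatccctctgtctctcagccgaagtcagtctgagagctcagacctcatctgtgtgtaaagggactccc

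Cpt1a, chr19:3323051-3323350, plus strand: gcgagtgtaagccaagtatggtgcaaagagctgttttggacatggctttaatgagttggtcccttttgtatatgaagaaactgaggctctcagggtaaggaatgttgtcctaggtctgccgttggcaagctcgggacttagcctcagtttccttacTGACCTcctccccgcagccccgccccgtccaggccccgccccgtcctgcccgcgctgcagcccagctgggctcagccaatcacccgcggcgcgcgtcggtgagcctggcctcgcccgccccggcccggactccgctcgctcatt

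RefSeq start sites were matched for 39 of the 46 genes, which gave 46 windows of 300 bases. A half-site on either strand lay in 8 of these windows (17.4%), against 16.3% of 32851 windows over all genes. It was found for 4 of 16 matched mitochondrial genes, for 4 of 14 peroxisomal oxidation genes and for 0 of 9 biogenesis genes. In the *Cat* window it began at position -204 on the strand of the gene, while in the *Acadm* and *Cpt1a* windows it lay on the other strand, from positions -249 and -94. The direct repeat of the half-site with 1 base between the copies (AGGTCA, any base, AGGTCA, on either strand, each copy also counted as a half-site) was in none of the member windows and in 13 of all windows (0.0396%). These letters say nothing of binding outside the windows. *Hadha* and *Hadhb*, which encode the partner subunits of the mitochondrial trifunctional protein, have RefSeq start sites 273 bases apart on chromosome 5. They are read in opposite directions, so that their windows overlap. The loci given with the expression values put their starts closer together, at 30155162 for *Hadha* and 30155248 for *Hadhb*.

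Values are FPKM, in which the fragments of a gene are scaled to its exon length and to the size of the library. Changes are differences of group means of log2(FPKM + 1), which understates changes of genes with low values, and a gene is said to have risen or fallen where limma's adjusted p over all 13842 genes was below 0.05. The labels give separate mice but no litter or surgery date. Many mice of a group share the number that opens their identifier, and no such number is shared between groups. What that number stands for is not given. If it marks a cage or litter, its effect cannot be told apart from that of the group, and kidneys that share it may not be independent. The values hold no fragment counts, so the counting error of each value is unknown, and libraries of a group correlated at a Pearson r of at least 0.957 on the log2 scale. *Kdm6a* itself was at 1.76 to 2.33 FPKM in KDM6A Ctrl sham kidneys and at 0.862 to 1.61 in KDM6A TubKO sham kidneys (log2 difference -0.48, adjusted p = 0.0502, limma). After UUO it was at 2.28 to 3.67 and 2.03 to 4.21 FPKM (log2 difference 0.018, adjusted p = 0.957), so that the gene value, which also counts the exons left in place and other cell types, does not check the genotype labels of UUO kidneys. All 20 proximal tubule markers were above 1 FPKM in the mean of every group, and their summed level was 15300 to 24100 FPKM in KDM6A Ctrl sham and 4280 to 12000 FPKM in KDM6A Ctrl UUO kidneys. In KDM6A TubKO mice it was 18300 to 28000 FPKM after sham surgery and 3710 to 7640 FPKM after UUO. Several libraries stood apart: KDM6A Ctrl UUO kidney 5 had adrenal markers at a summed 43.2 FPKM, against 1.18 or less elsewhere, and fat markers at 371 FPKM, and KDM6A Ctrl UUO kidney 2 had urothelium markers at 914 FPKM. KDM6A Ctrl sham kidney 3 had tubule injury markers at a summed 1170 FPKM, against 292 to 394 FPKM in the rest of its group. Its macrophage (100 FPKM) and fibroblast (49.8 FPKM) markers were also the highest of that group. In 1 further library, KDM6A TubKO UUO kidney 2, the genes described here were less reduced than in the others of its group, as described with the genotype comparisons.

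After UUO, nearly the whole group of genes fell in both genotypes. In KDM6A Ctrl mice 41 of the 46 fell and 0 rose, in a table where 15.1% of all genes fell and 56.7% rose. Among genes of KDM6A TubKO mice 42 fell and 0 rose, against 16.7% of all genes that fell and 57.9% that rose. The median log2 change was -1.01 over the mitochondrial and -1.08 over the peroxisomal oxidation genes in KDM6A Ctrl mice, and -1.05 and -1.35 in KDM6A TubKO mice. Over the biogenesis genes it was nearer to 0, at -0.36 and -0.34, although the classes were not tested against each other. Over all genes the medians were 0.35 and 0.39.

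By class, 19 of 19 mitochondrial, 15 of 16 peroxisomal oxidation and 7 of 11 biogenesis genes fell in KDM6A Ctrl mice. The corresponding counts in KDM6A TubKO mice were 18, 16 and 8. In KDM6A Ctrl mice 38 genes had every UUO kidney below every sham kidney, as had 10.5% of all genes. KDM6A TubKO mice also gave 38 such genes, against 12.6% of all genes. At the threshold used by the study, which asks for a 1.5-fold difference and p below 0.05 before adjustment, 32 members were lower in KDM6A Ctrl UUO kidneys (8.2% of all genes) and 34 in KDM6A TubKO UUO kidneys (9.87%). A Ballgown-like F-test has as its covariate each library's sum of log2(FPKM + 1) over the genes up to its upper quartile. It called 0 of the 46 in either genotype, and 0 and 1 of all genes (0.00722% for the latter). At an unadjusted p below 0.05 it held 4 and 3 of the 46, against 8.22% and 11.7% of all genes, so that these counts are no result about the members. Its covariate ran from 17526 to 18693 in sham kidneys and from 22354 to 23796 in UUO kidneys and so did not overlap between the surgeries. Total FPKM went the other way, from 347739 to 387375 in sham and from 298467 to 316964 in UUO kidneys. Under quantile normalization all genes together rose and fell in more even numbers (3991 and 4848, against 7844 and 2085 without it, in KDM6A Ctrl mice), and 44 and 46 of the members fell. Leaving out any 1 kidney gave 41 to 42 falls in KDM6A Ctrl and 40 to 43 in KDM6A TubKO mice.

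**Figure D1:**
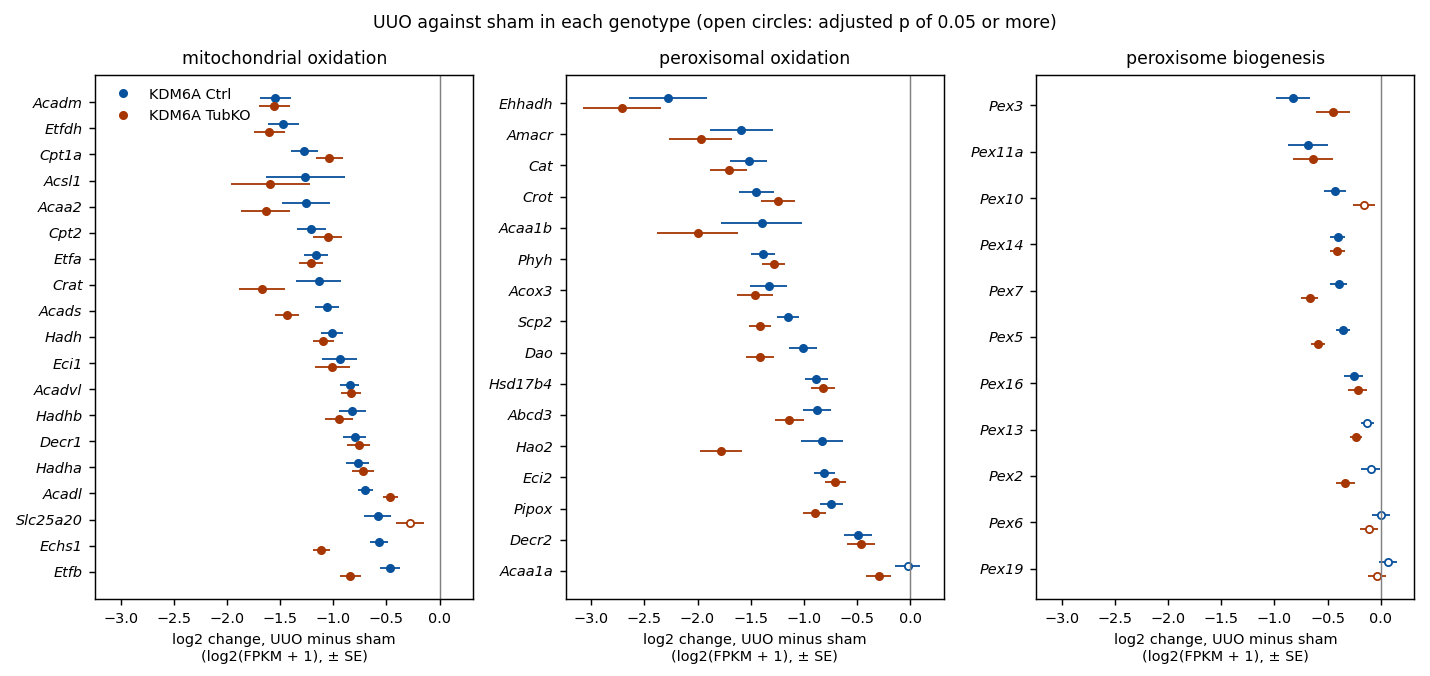
Change after UUO of each of the 46 genes, as the difference of group means of log2(FPKM + 1), with KDM6A Ctrl and KDM6A TubKO mice side by side, bars of 1 standard error and genes grouped by class. Open circles mark genes with an adjusted p of 0.05 or more, and the points of the oxidation classes sit mostly between -0.5 and -2, while those of the biogenesis class sit nearer to 0.

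Of the carnitine shuttle, all genes fell in both genotypes except *Slc25a20*, which fell in KDM6A Ctrl mice alone by the test. *Cpt1a* encodes carnitine palmitoyltransferase 1A, which commits fatty acids to mitochondrial entry. Its level in KDM6A Ctrl kidneys was 166, 127, 140.2, 126 and 146 FPKM after sham surgery and 47.7, 62.7, 66.6, 60.6 and 52.3 FPKM after UUO, with every UUO kidney below every sham kidney. In KDM6A TubKO kidneys it was 91.9, 119.9, 96.6, 111 and 104 FPKM after sham surgery and 39.6, 67, 57.4, 46.9 and 44.7 FPKM after UUO, again without overlap. The log2 change was -1.27 ± 0.13 (SE, n = 5 per group, limma adjusted p = 4.86e-08) in KDM6A Ctrl and -1.04 ± 0.13 (adjusted p = 5.33e-07) in KDM6A TubKO mice. *Cpt2*, which returns the acyl group to coenzyme A inside the mitochondrion, fell in both (-1.21 and -1.05).

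*Acsl1* encodes a ligase that activates long-chain fatty acids with coenzyme A before the shuttle. It was at 36.9, 28.3, 22.6, 27.4 and 21.3 FPKM in KDM6A Ctrl sham kidneys and at 12.4, 18.3, 10.9, 5.56 and 9.36 FPKM in KDM6A Ctrl UUO kidneys. The KDM6A TubKO values were 11.9, 18.3, 13.6, 23.7 and 19.0 FPKM after sham surgery and 7.10, 11.5, 8.01, 1.26 and 2.49 FPKM after UUO. Both genotypes fell without overlap, by 1.27 ± 0.37 (adjusted p = 0.00508, limma) and 1.59 ± 0.37 (adjusted p = 0.000737) on the log2 scale, with wide spread among KDM6A TubKO UUO kidneys, of which the lowest held 1.26 and the highest 11.5 FPKM. *Crat*, whose product moves short acyl groups between carnitine and coenzyme A, was at 29.8, 22.2, 25.4, 27.4 and 24.7 FPKM in KDM6A Ctrl sham kidneys and 13.2, 10.3, 12.0, 12.8 and 8.24 FPKM after UUO. KDM6A TubKO mice went from 23.9, 24.3, 22.2, 25.2 and 23.9 FPKM to 2.96, 10.6, 5.31, 7.45 and 10.9 FPKM. The change was -1.14 (adjusted p = 0.000107) in KDM6A Ctrl and -1.67 (adjusted p = 9.88e-07) in KDM6A TubKO mice.

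*Slc25a20*, the carrier that exchanges acylcarnitine for carnitine across the inner mitochondrial membrane, was the only mitochondrial member without a call in both genotypes. Its KDM6A Ctrl values were 28.6, 17.0, 16.6, 20.6 and 18.0 FPKM after sham surgery and 11.1, 13.7, 12.7, 14.1 and 13.0 FPKM after UUO (log2 change -0.58, adjusted p = 0.000541, limma). The KDM6A TubKO values were 16, 17.8, 15.3, 16.4 and 17.9 FPKM and 11.9, 18.8, 12.6, 12.6 and 12.9 FPKM (log2 change -0.28, adjusted p = 0.0625), and UUO kidney 2 alone lay above the sham kidneys. Without that kidney the change was -0.39 (adjusted p = 0.00641), and without KDM6A Ctrl sham kidney 1, which also enters the estimate of the spread, its adjusted p was 0.0208. The difference between the genotypes did not pass the test (interaction 0.31, adjusted p = 0.418).

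Inside the mitochondrion, the acyl-CoA dehydrogenases start each round, for very long, long, medium and short chains (*Acadvl*, *Acadl*, *Acadm* and *Acads*). *Acadm* had the largest mitochondrial fall in KDM6A Ctrl mice, from 234, 300.1, 250.3, 253 and 263 FPKM in sham kidneys to 101, 81.2, 112, 83.9 and 68.6 FPKM in UUO kidneys (log2 change -1.55 ± 0.15, limma adjusted p = 2.16e-08). KDM6A TubKO kidneys moved alike, from 213, 213, 218, 236 and 224 FPKM to 52.9, 107, 77.4, 65.8 and 78.5 FPKM (-1.56, adjusted p = 1.48e-08). *Acadl*, at a mean of 301 ± 31.1 FPKM in KDM6A Ctrl sham kidneys (SD, n = 5), fell less, by 0.70 and 0.46 on the log2 scale. *Acadvl* and *Acads* fell by 0.85 and 1.06 in KDM6A Ctrl mice.

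The next steps are hydration (*Echs1*), the second dehydrogenation (*Hadh*, and *Hadha* with *Hadhb* for long chains) and thiolysis (*Acaa2*). *Acaa2* was at 207, 135, 115, 221 and 118 FPKM in KDM6A Ctrl sham and 55.2, 88.9, 58.8, 62.6 and 57.4 FPKM in KDM6A Ctrl UUO kidneys. The KDM6A TubKO kidneys held 143, 167, 133, 188 and 172 FPKM after sham surgery and 34.0, 84.2, 52.0, 36.5 and 60.5 FPKM after UUO. KDM6A Ctrl sham kidneys 1 and 4 lay above the other sham kidneys of that genotype, and no UUO kidney reached a sham kidney in either genotype (log2 changes -1.25, adjusted p = 6.89e-05, and -1.64, adjusted p = 2.63e-06, limma). *Echs1* varied little within groups, with 16.7, 16.1, 16.5, 18.0 and 17.4 FPKM in KDM6A Ctrl sham and 11.1, 11, 12.3, 10.4 and 10.6 FPKM in KDM6A Ctrl UUO kidneys (log2 change -0.57). In KDM6A TubKO mice it went from 18.9, 20.7, 19.7, 20.9 and 19.6 FPKM to 7.33, 11, 9.71, 7.35 and 8.64 FPKM (log2 change -1.11). *Hadh*, *Hadha* and *Hadhb* fell by 0.77 to 1.01 in KDM6A Ctrl and 0.72 to 1.09 in KDM6A TubKO mice, and the auxiliary enzymes of unsaturated chains, *Eci1* and *Decr1*, fell by 0.94 and 0.80 in KDM6A Ctrl mice.

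Electrons from the dehydrogenases pass through the electron transfer flavoprotein (*Etfa*, *Etfb*) to its oxidoreductase in the inner membrane (*Etfdh*). *Etfdh* was at 43.8, 33.8, 33.9, 34.2 and 32.2 FPKM in KDM6A Ctrl sham and 11.5, 12.4, 16.2, 11.2 and 10.2 FPKM in KDM6A Ctrl UUO kidneys (log2 change -1.47 ± 0.15, limma adjusted p = 4.38e-08). Its KDM6A TubKO values were 23.3, 27.4, 24.8, 31.0 and 28.1 FPKM after sham surgery and 6.62, 11.1, 10.2, 5.77 and 8.13 FPKM after UUO (log2 change -1.60, adjusted p = 1.04e-08). *Etfb* had the smallest mitochondrial fall in KDM6A Ctrl mice, from 192, 201, 195, 237 and 209 FPKM to 167, 147, 142, 156 and 136 FPKM (log2 change -0.47). The KDM6A TubKO level of *Etfb* went from 302, 235, 243, 247 and 287 FPKM to 128, 182, 129, 152 and 144 FPKM (log2 change -0.84), while its partner subunit *Etfa* fell by 1.16 in the KDM6A Ctrl group and by 1.21 in the KDM6A TubKO group.

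**Figure D2:**
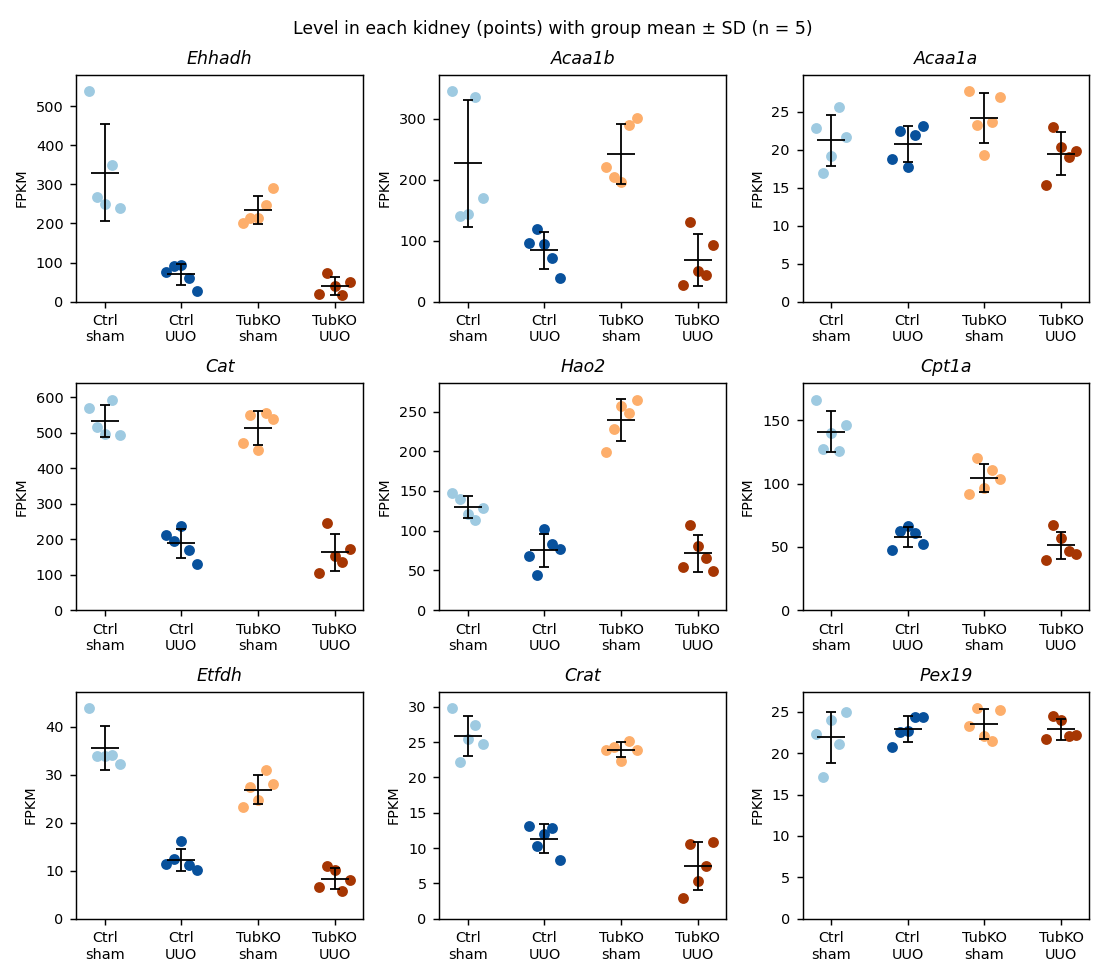
Level in FPKM of selected genes in each of the 20 kidneys (points), with group means and SD (n = 5), for sham and UUO kidneys of both genotypes, each panel with its own axis from 0. *Ehhadh*, *Cat* and *Cpt1a* fell without overlap in both genotypes, *Hao2* was highest in KDM6A TubKO sham kidneys, and *Acaa1a* and *Pex19* overlapped between sham and UUO.

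Among the peroxisomal enzymes, *Ehhadh* had the largest fall. It encodes the bifunctional enzyme that hydrates and dehydrogenates straight-chain and dicarboxylic substrates, and is a well known PPARα target. Its level was 538, 268, 251, 349.9 and 240.1 FPKM in KDM6A Ctrl sham kidneys and 76.4, 91.4, 93.6, 59.6 and 27.1 FPKM in KDM6A Ctrl UUO kidneys. KDM6A TubKO kidneys held 202, 214, 214, 246 and 289.9 FPKM after sham surgery and 18.4, 73.4, 39.8, 17.9 and 49.2 FPKM after UUO. There was no overlap in either genotype, although KDM6A Ctrl sham kidney 1 stood well above its group and KDM6A Ctrl UUO kidney 5 well below. The log2 change was -2.28 ± 0.36 (SE, limma adjusted p = 1.71e-05) in KDM6A Ctrl and -2.71 ± 0.36 (adjusted p = 1.7e-06) in KDM6A TubKO mice. *Hsd17b4*, the bifunctional enzyme of the branched-chain route, fell by 0.88 and 0.82, and its companions *Scp2*, a thiolase and sterol carrier, and *Acox3*, an oxidase of branched chains, fell by 1.15 and 1.33 in KDM6A Ctrl mice.

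The peroxisomal thiolase that cleaves straight chains is encoded in mice by a pair of genes, *Acaa1a* and *Acaa1b*, and they differed. *Acaa1b* was at 345, 139.9, 143, 336 and 169.6 FPKM in KDM6A Ctrl sham and 96.0, 119.5, 94.7, 71.3 and 38.8 FPKM in KDM6A Ctrl UUO kidneys (log2 change -1.39 ± 0.38, limma adjusted p = 0.00298). In KDM6A TubKO mice it went from 220.3, 205, 196, 289.8 and 301 FPKM to 26.6, 131, 49.8, 43.6 and 93.4 FPKM (log2 change -2.0, adjusted p = 0.000102). The sham kidneys of KDM6A Ctrl mice fell into a high pair, kidneys 1 and 4, and 3 lower ones, all above the UUO kidneys. *Acaa1a* was at 22.8, 16.9, 19.2, 25.6 and 21.7 FPKM after sham surgery and 18.8, 22.4, 17.7, 21.9 and 23.1 FPKM after UUO in KDM6A Ctrl mice, with full overlap (log2 change -0.025 ± 0.12, adjusted p = 0.863). Its KDM6A TubKO values, 27.7, 23.3, 19.4, 23.7 and 26.9 FPKM after sham surgery and 15.3, 23.0, 20.4, 19.0 and 19.8 FPKM after UUO, also overlapped (log2 change -0.30, adjusted p = 0.0319, but 0.0534 to 0.105 without KDM6A TubKO sham kidney 1 or 5 or KDM6A TubKO UUO kidney 1 or 4, and 0.0666 with a covariate for 2 number series into which the identifiers of the mice fall). Their main transcripts, of 1762 and 1689 bases, were 92.9% identical over 1637 aligned bases, so that reads may be shared between them and both levels are uncertain.

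*Cat* encodes catalase, which removes hydrogen peroxide. It was at 571, 515, 496, 593 and 496 FPKM in KDM6A Ctrl sham kidneys and 212, 196, 238, 169 and 132 FPKM in KDM6A Ctrl UUO kidneys (log2 change -1.52 ± 0.17, limma adjusted p = 2.97e-07). KDM6A TubKO kidneys held 472, 549.6, 453, 556 and 541 FPKM and 105, 245, 154, 137 and 174 FPKM (log2 change -1.71, adjusted p = 4.93e-08). Sham and UUO kidneys were far apart in both genotypes, the ratio of the group means being 0.354 and 0.316. *Hao2*, an oxidase of 2-hydroxy acids, was at 148, 139.5, 121, 113 and 129 FPKM in KDM6A Ctrl sham and 67.9, 44.5, 103, 83 and 77.3 FPKM in KDM6A Ctrl UUO kidneys (log2 change -0.83 ± 0.20, adjusted p = 0.000961). From a higher sham level, 199, 228, 257, 248 and 265 FPKM, it went to 54.7, 107, 80.3, 65.1 and 49.3 FPKM in KDM6A TubKO mice (log2 change -1.78 ± 0.20, adjusted p = 1.37e-07). The UUO kidneys of the genotypes overlapped.

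*Amacr*, the racemase that readies branched-chain acids for oxidation, scattered widely among KDM6A Ctrl sham kidneys, at 37.1, 145, 119, 67.6 and 106 FPKM. After UUO it was at 25.8, 23.6, 44.5, 32.7 and 18.6 FPKM, the highest of which lay above KDM6A Ctrl sham kidney 1 (log2 change -1.59, limma adjusted p = 8.95e-05). In KDM6A TubKO mice the values, 110.0, 95.8, 86.2, 82.8 and 96.4 FPKM and 16.8, 36.9, 25.7, 22.0 and 19.2 FPKM, did not overlap (log2 change -1.97, adjusted p = 6.79e-06). Of the remaining peroxisomal enzymes, the fatty acid importer *Abcd3*, the carnitine transferase *Crot*, the phytanic acid hydroxylase *Phyh*, the auxiliary enzymes *Eci2* and *Decr2*, and the amino acid oxidases *Dao* and *Pipox* fell in both genotypes. Their log2 changes ran from -1.45 (*Crot*) to -0.49 (*Decr2*) in KDM6A Ctrl and from -1.42 (*Dao*) to -0.46 (*Decr2*) in KDM6A TubKO mice. The groups of *Decr2* overlapped in both genotypes.

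The genes that build peroxisomes had lower levels, with means from 3.80 FPKM for *Pex10* to 27.7 FPKM for *Pex11a* in KDM6A Ctrl sham kidneys, and log2 changes between -0.83 and 0.071 in KDM6A Ctrl mice. *Pex3*, which with *Pex16* and *Pex19* places proteins in the peroxisomal membrane, had the largest fall in KDM6A Ctrl mice, from 5.89, 9.08, 7.91, 6.91 and 7.39 FPKM to 4.38, 2.38, 5.21, 2.38 and 5.18 FPKM (log2 change -0.83 ± 0.16, limma adjusted p = 0.00012). The KDM6A TubKO values of *Pex3* were 6.25, 6.39, 7.03, 6.79 and 7.16 FPKM and 3.94, 5.30, 5.15, 4.83 and 4.10 FPKM (log2 change -0.45, adjusted p = 0.0147). *Pex11a*, which drives peroxisome division and is a PPARα target, was at 39.0, 26.7, 27.6, 23.8 and 21.4 FPKM in KDM6A Ctrl sham and 17.0, 17.4, 17.5, 18.3 and 12.9 FPKM in KDM6A Ctrl UUO kidneys (log2 change -0.68, adjusted p = 0.00295). Its KDM6A TubKO values were 26.3, 20.5, 22.5, 22.6 and 21.2 FPKM after sham surgery and 9.71, 24.7, 13.5, 11.1 and 15.5 FPKM after UUO (log2 change -0.64, adjusted p = 0.00474), where UUO kidney 2 reached into the sham range.

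The receptors that bring enzymes into the peroxisome are *Pex5*, for the common targeting signal at the end of the protein, and *Pex7*, for the less common one at its start. *Pex5* was at 12.5, 13.3, 11.9, 14.1 and 13.4 FPKM in KDM6A Ctrl sham and 10.2, 8.30, 10.4, 10.3 and 10.7 FPKM in KDM6A Ctrl UUO kidneys (log2 change -0.36, limma adjusted p = 0.000105). KDM6A TubKO kidneys went from 14.9, 15.6, 13.7, 14.9 and 14.7 FPKM to 9.48, 10.1, 9.38, 8.64 and 9.86 FPKM (log2 change -0.59, adjusted p = 2.24e-07). *Pex7* was at 3.97, 5.45, 4.89, 4.47 and 4.44 FPKM after sham surgery and 3.30, 3.21, 3.36, 3.36 and 3.13 FPKM after UUO in KDM6A Ctrl mice (log2 change -0.40, adjusted p = 0.000151). The KDM6A TubKO kidneys held 5.12, 4.75, 5.03, 5.01 and 4.97 FPKM and 2.59, 3.56, 2.76, 2.60 and 2.37 FPKM (log2 change -0.67, adjusted p = 2.54e-07). Both receptors fell without overlap in both genotypes, and the docking protein *Pex14* fell as well (-0.41 and -0.41).

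The remaining peroxins were mixed. *Pex19*, the carrier of newly made membrane proteins, was at 17.2 to 25.0 FPKM in KDM6A Ctrl sham and 20.7 to 24.4 FPKM in KDM6A Ctrl UUO kidneys (log2 change 0.071, limma adjusted p = 0.46), and at 21.5 to 25.4 and 21.7 to 24.5 FPKM in KDM6A TubKO mice (-0.036, adjusted p = 0.71). *Pex6*, an ATPase that recycles the import receptor, was at 7.95 to 11 FPKM in KDM6A Ctrl sham and 9.11 to 11 FPKM in KDM6A Ctrl UUO kidneys (0.0013, adjusted p = 0.99), and the KDM6A TubKO change was -0.11 (adjusted p = 0.226). These 2 genes fell in both genotypes only under rescaling to the upper quartile or, for *Pex6* alone, quantile normalization, which shifted the median of all genes by -0.21 and by -0.40 to -0.43. The ring-finger peroxins, which tag the import receptor with ubiquitin, differed by genotype in their calls. *Pex2* had a log2 change of -0.096 (adjusted p = 0.342) in KDM6A Ctrl and -0.34 (adjusted p = 0.00216) in KDM6A TubKO mice, and *Pex10* of -0.43 (adjusted p = 0.00108) and -0.16 (adjusted p = 0.167, but 0.0227 without KDM6A TubKO sham kidney 4). *Pex13*, part of the docking complex, had log2 changes of -0.13 (adjusted p = 0.0608, but 0.0406 or 0.0422 without KDM6A Ctrl UUO kidney 1 or 2) and -0.23 (adjusted p = 0.00156), and *Pex16* fell in both (-0.26 and -0.22) with overlapping groups. None of these differences between the genotypes passed the test of the difference itself.

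Taking each kidney on its own, with the median over a class of log2(FPKM + 1) minus the KDM6A Ctrl sham mean, the mitochondrial genes were at -1.09 to -0.87 in KDM6A Ctrl UUO and -1.45 to -0.78 in KDM6A TubKO UUO kidneys. The peroxisomal oxidation genes were at -1.30 to -0.82 and -1.48 to -0.75, and the biogenesis genes at -0.42 to -0.24 and -0.47 to -0.21. All 10 UUO kidneys were thus below all 10 sham kidneys in each class. The proximal tubule markers fell in the same kidneys, 20 of 20 in both genotypes (median log2 changes -1.49 and -2.01), to between -2.1 and -1.1 in KDM6A Ctrl UUO and between -2.27 and -1.1 in KDM6A TubKO UUO kidneys, and 8 of 8 tubule injury, 12 of 12 macrophage and 10 of 10 fibroblast markers rose. Their part in the falls was not tested. The mouse identifiers fall into 2 number series that the labels do not explain. Within them the class medians kept their direction, at -0.94 and -1.1 for mitochondrial, -0.97 and -1.26 for peroxisomal oxidation and -0.41 and -0.30 for biogenesis genes in KDM6A Ctrl mice, and at -0.96 and -1.19, -1.29 and -1.40, and -0.33 and -0.38 in KDM6A TubKO mice.

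**Figure D3:**
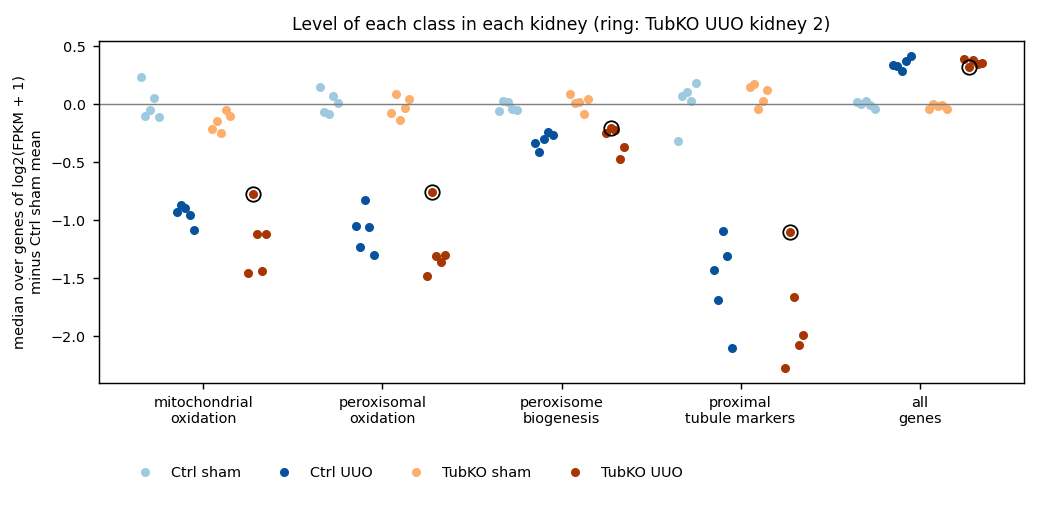
Median over the genes of each class of log2(FPKM + 1) minus the KDM6A Ctrl sham mean, 1 point per kidney, for the 3 classes, the 20 proximal tubule markers and all genes, in the 4 groups of 5 kidneys. The oxidation classes lie near -1 in UUO kidneys and the biogenesis class near -0.3, while KDM6A TubKO UUO kidney 2 (ring) is the highest of its group in all 3 classes and in the proximal tubule markers.

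Between the genotypes, few of the 46 genes differed. In sham kidneys 2 rose in KDM6A TubKO mice (1.94% of all genes rose) and 0 fell (3.89% of all genes fell), with 11 at an unadjusted p below 0.05 in limma (21.5% of all genes) and 10 in the Ballgown-like test (16%). The largest difference was that of *Hao2*, whose values stand with the peroxisomal genes above. Its 5 KDM6A TubKO sham kidneys were all above the 5 KDM6A Ctrl sham kidneys (means 240 ± 26.5 against 130 ± 14.0 FPKM, SD, n = 5 each), with a log2 difference of 0.88 ± 0.20 (SE, limma adjusted p = 0.0193). The adjusted p was 0.0706 after quantile normalization and 0.0576 without KDM6A TubKO sham kidney 5. Within the number series the difference was 0.55 (1 kidney against 3) and 1.04 (4 against 2). *Hao2* is known to be higher in female than in male kidneys of mice, and of 3 other such genes *Prlr*, the prolactin receptor, also rose in KDM6A TubKO sham kidneys (log2 difference 1.5, adjusted p = 0.0377), while *Slc7a12* differed by 1.30 (adjusted p = 0.185) and *Cyp4a14* by -0.62 (adjusted p = 0.767). Of 7 genes known to be higher in male kidneys 0 were called, with 4 differences below and 3 above 0 (median -0.061). At the study's threshold 2 of these 7 were lower and 0 higher. The 3 female-high genes summed to 42.5 to 686 FPKM in KDM6A Ctrl sham and 53 to 272 FPKM in KDM6A TubKO sham kidneys. The part of such genes in the *Hao2* difference was not tested.

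*Etfb* was the other gene that rose in KDM6A TubKO sham kidneys, with a log2 difference of 0.34 ± 0.10 (limma adjusted p = 0.0454). Its lowest KDM6A TubKO sham kidney, at 235 FPKM, lay just below the highest KDM6A Ctrl sham kidney, at 237 FPKM. The call passed under 13 of 29 alternatives and was lost without any 1 of 11 kidneys (KDM6A Ctrl sham 1, 2, 3 and 5, KDM6A Ctrl UUO 2 and 4, KDM6A TubKO sham 1, 3 and 5, KDM6A TubKO UUO 4 and 5), with adjusted p from 0.052 to 0.125, and was 0.0773 with the number series as a covariate. Within the number series the difference was 0.62 and 0.18. *Cpt1a* went the other way. All 5 KDM6A TubKO sham kidneys (91.9 to 119.9 FPKM) were below all 5 KDM6A Ctrl sham kidneys (126 to 166 FPKM), with a log2 difference of -0.43 ± 0.13 that did not pass the test over all genes (adjusted p = 0.0538, but 0.0331 to 0.0433 without KDM6A Ctrl sham kidney 4 or KDM6A TubKO UUO kidney 1 or 2). *Acadl* gave the same picture at a smaller size (-0.24, adjusted p = 0.0536), and *Etfdh* (-0.39, adjusted p = 0.123) and *Pex14* (-0.20, adjusted p = 0.101) were also lower without overlap, while *Echs1* was higher without overlap (0.22, adjusted p = 0.121). Without overlap, 4 of the 46 genes were lower and 2 higher, against 675 and 390 of all 13842 genes.

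In UUO kidneys 2 of the 46 genes fell in KDM6A TubKO mice (3.07% of all genes fell) and 0 rose (2.58% of all genes rose), with 11 at an unadjusted p below 0.05 in limma (24.6% of all genes) and 3 in the Ballgown-like test (21.7%). *Echs1* was at 7.33 to 11 FPKM in KDM6A TubKO UUO and 10.4 to 12.3 FPKM in KDM6A Ctrl UUO kidneys (log2 difference -0.32 ± 0.08, SE, limma adjusted p = 0.0372). *Etfdh* was at 5.77 to 11.1 and 10.2 to 16.2 FPKM (-0.52 ± 0.15, adjusted p = 0.0443). Both overlapped between the genotypes, as did all of the 46. Of all 13842 genes, 431 were lower and 324 higher without overlap. The differences were -0.29 and -0.36 for *Echs1* and -0.49 and -0.57 for *Etfdh* within the number series. Neither call held when the sham groups were left out of the fit (adjusted p = 0.161 and 0.155) or under upper quartile rescaling (0.0504 and 0.0523) or with array weights (0.062 and 0.0741). The *Echs1* call was lost without any 1 of 6 kidneys (KDM6A Ctrl UUO 1, 2 and 3, KDM6A TubKO UUO 1, 4 and 5), with adjusted p from 0.0586 to 0.104. The *Etfdh* call was lost without any 1 of 14 (KDM6A Ctrl sham 2 to 5, KDM6A Ctrl UUO 1 to 4, KDM6A TubKO sham 2, 3 and 5, KDM6A TubKO UUO 1, 4 and 5), with adjusted p from 0.0509 to 0.121.

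In all, 39 of the 46 log2 differences in UUO kidneys were below 0 (median -0.16, against 0.00 over all genes). At the study's threshold 3 genes were lower in KDM6A TubKO UUO kidneys (2.26% of all genes were), *Acsl1* (-0.97, adjusted p = 0.119, limma), *Crat* (-0.64, adjusted p = 0.0805) and *Ehhadh* (-0.87, adjusted p = 0.15). Of the 20 proximal tubule markers, 19 had differences below 0 (median -0.32), with 0 called by limma and 4 at an unadjusted p below 0.05. Markers of the loop of Henle, distal tubule and collecting duct went the other way. There 10 of 12 had differences above 0 (median 0.19), with 1 called as risen by limma and 4 at an unadjusted p below 0.05. Of the 7 urothelium markers 5 fell (median -2.25), KDM6A Ctrl UUO kidney 2 being the library rich in them. Of the 12 macrophage markers 3 rose and 11 had differences above 0 (median 0.29), and their summed level in KDM6A TubKO UUO kidneys lay inside the range of KDM6A Ctrl UUO kidneys, 614 to 1320.0 FPKM. All 10 fat and all 5 adrenal markers had differences below 0, with 0 called. The part of these markers in the differences was not tested. The spread among KDM6A TubKO UUO kidneys was the widest of the groups, with a median coefficient of variation of 19.0% over the 46 genes, against 9.10% to 11.9% in the others. Without KDM6A TubKO UUO kidney 2, 7 genes fell in KDM6A TubKO UUO kidneys (*Echs1*, *Etfdh*, *Acads*, *Pex7*, *Crat*, *Hadh* and *Acsl1*), while over all genes the falls went from 3.07% to 4.1%. Without KDM6A Ctrl UUO kidney 5, the library with adrenal and fat markers, 4 fell (*Etfdh*, *Echs1*, *Ehhadh* and *Crat*), against 3.48% of all genes.

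The interaction asks whether UUO changed a gene by a different amount in the genotypes. It called 0 of the 46 genes (0.0289% of all genes were called), with 8 at an unadjusted p below 0.05 in limma (15.7% of all genes) and 7 in the Ballgown-like test (15.2%). The lowest adjusted p was that of *Echs1*, which fell further in KDM6A TubKO mice (-0.54 ± 0.12, SE, adjusted p = 0.0771). *Hao2* had the largest interaction (-0.95 ± 0.28, adjusted p = 0.13), and its levels differed in sham and overlapped in UUO kidneys. Both were called without KDM6A TubKO UUO kidney 2, when calls over all genes rose to 0.694% (*Echs1* -0.62, adjusted p = 0.0214, and *Hao2* -1.11, adjusted p = 0.0492).

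**Figure D4:**
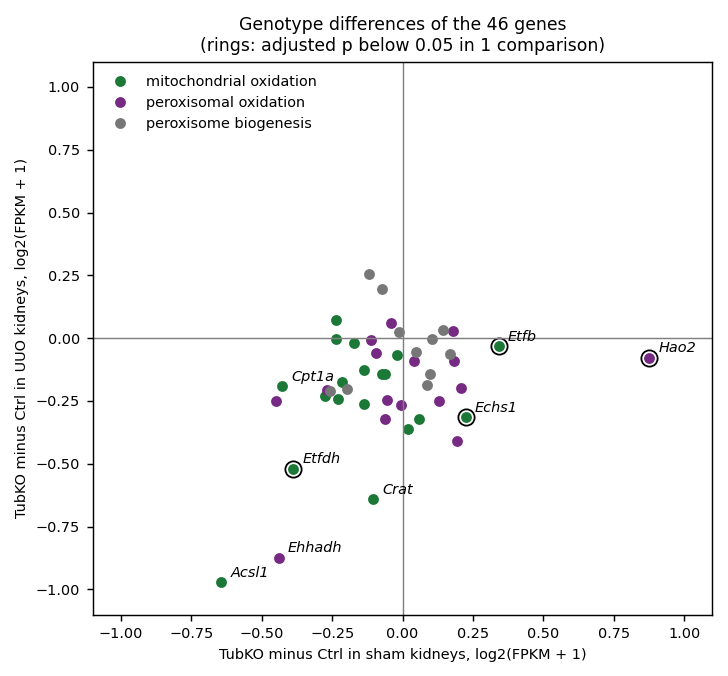
Difference between KDM6A TubKO and KDM6A Ctrl kidneys of each of the 46 genes in sham kidneys (horizontal axis) and in UUO kidneys (vertical axis), as differences of group means of log2(FPKM + 1), coloured by class, with rings around genes called in 1 comparison. *Hao2* (0.88) and *Etfb* (0.34) were called in sham and *Echs1* (-0.32) and *Etfdh* (-0.52) in UUO kidneys, and 39 of the 46 points lie below 0 on the vertical axis.

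The 3 regulators of these genes that were chosen for a look all fell after UUO, and other regulators were not examined. *Ppara*, which encodes PPARα, had a mean of 8.08 ± 1.36 FPKM (SD, n = 5) in sham and 2.23 ± 0.603 FPKM in UUO kidneys of KDM6A Ctrl mice. The KDM6A TubKO means were 4.19 ± 1.14 FPKM after sham surgery and 1.15 ± 0.452 FPKM after UUO. It fell after UUO by 1.5 (adjusted p = 2.64e-07, limma) in KDM6A Ctrl and by 1.27 (adjusted p = 1.74e-06) in KDM6A TubKO mice. Between the genotypes, *Ppara* was lower with the knockout, by -0.82 in sham kidneys (adjusted p = 0.0135), where the groups did not overlap, and by -0.59 in UUO kidneys (adjusted p = 0.0486). The latter call was lost when the sham groups were left out of the fit (adjusted p = 0.127), with array weights (0.128), under upper quartile rescaling (0.055), with the number series as a covariate (0.0522) and without any 1 of 14 kidneys (KDM6A Ctrl sham 1, 2, 3 and 5, KDM6A Ctrl UUO 1, 2 and 3, KDM6A TubKO sham 1, 2 and 3, KDM6A TubKO UUO 1, 3, 4 and 5), with adjusted p from 0.0507 to 0.126. *Ppargc1a*, a coactivator of mitochondrial genes, fell by 0.64 and 0.53 after UUO, and *Esrra*, an orphan receptor that works with it, by 0.46 and 0.67. Neither differed between the genotypes by the test (adjusted p from 0.547 to 0.891).

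Other genes of the same pathways came from lists of general knowledge. Of 34 further mitochondrial fatty acid genes, 28 fell and 3 rose in KDM6A Ctrl and 26 fell and 3 rose in KDM6A TubKO mice (medians -0.92 and -0.98). The genes that rose were *Cpt1c* (1.06 and 1.09), which encodes a carnitine palmitoyltransferase best known from neurons, and the acyl-CoA ligases *Acsl4* (0.87 and 1.18) and *Acsl5* (0.81 and 0.92), in contrast to the fall of *Acsl1*. Among the largest falls were those of *Acsm3* (-2.77 and -2.65) and *Acsm2* (-2.04 and -2.19), ligases of medium-chain acids, and that of *Ivd*, a dehydrogenase of leucine breakdown, in KDM6A TubKO mice (-2.12). Between the genotypes, 1 of the 34 fell in KDM6A TubKO against KDM6A Ctrl UUO kidneys (3.07% of all genes fell). It was *Slc27a4*, a fatty acid transporter (-0.51, adjusted p = 0.0101, limma).

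Of 44 further peroxisome genes, 24 fell and 8 rose in KDM6A Ctrl and 27 fell and 5 rose in KDM6A TubKO mice (medians -0.40 and -0.52). *Acox2*, the oxidase of bile acid intermediates, fell by 1.77 and 1.94. *Mpv17l*, a peroxisomal membrane protein, fell by 1.86 and 2.17, and *Pecr*, a reductase of unsaturated chains, by 2.11 in KDM6A TubKO mice. The largest rises were those of *Xdh*, xanthine dehydrogenase (0.83 and 0.55), *Baat*, which conjugates bile acids (0.74 in KDM6A Ctrl), *Nos2*, inducible nitric oxide synthase (0.60 in KDM6A Ctrl), *Paox*, a polyamine oxidase (0.90 in KDM6A TubKO) and *Fndc5* (0.58 in KDM6A TubKO). Between the genotypes, 1 of the 44 rose in KDM6A TubKO sham kidneys (1.94% of all genes rose). It was *Gstk1*, a glutathione transferase (0.61, adjusted p = 0.0426, limma). In KDM6A TubKO UUO kidneys 1 of the 44 fell (3.07% of all genes fell), *Far1*, a reductase of ether lipid synthesis (-1.46, adjusted p = 0.029).

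The transcript table, fitted separately over its 26228 transcripts, held 93 transcripts of the 46 genes, 1 each for 26 genes and more for 20. After UUO 56 fell and 0 rose in KDM6A Ctrl (9.83% of all transcripts fell) and 59 fell and 0 rose in KDM6A TubKO mice (11.7%). In sham kidneys 1 transcript rose in KDM6A TubKO mice (0.233% of all rose). It was Abcd3-204, from the gene of the peroxisomal fatty acid importer, at 14.5, 27.2, 10.7, 17.9 and 13.4 FPKM in KDM6A TubKO sham and 0.31, 0.20, 0.15, 3.83 and 18.8 FPKM in KDM6A Ctrl sham kidneys (log2 difference 2.59, limma adjusted p = 0.044). KDM6A Ctrl sham kidney 5 lay inside the KDM6A TubKO range, and the gene value of *Abcd3* differed by -0.063 (adjusted p = 0.868). In UUO kidneys 1 transcript fell in KDM6A TubKO mice (0.839% of all fell), Scp2-205, at 2.78, 4.46, 5.76, 1.54 and 1.80 FPKM against 9.86, 6.62, 14.0, 7.14 and 6.52 FPKM in KDM6A Ctrl UUO kidneys, without overlap (-1.25, adjusted p = 0.0275). Etfdh-202 was listed at 0 in 0 of 5 KDM6A Ctrl sham, 3 of 5 KDM6A Ctrl UUO, 2 of 5 KDM6A TubKO sham and 5 of 5 KDM6A TubKO UUO kidneys, and its genotype differences were not called (adjusted p = 0.482 in sham and 0.448 in UUO kidneys). The interaction called 0 of the 93 transcripts.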

How the data were processed

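Kidney RNA of 20 mice was enriched with oligo(dT), made into stranded libraries and sequenced in pairs. The submitters' processing notes name cutadapt, HISAT2, StringTie and the GRCm38 build without versions, and the study's methods name Ballgown. The authors deposited FPKM per gene (13842 genes) and per transcript (26228), and fold changes and p-values of their own comparisons, which were not used. FPKM carry no fragment counts. The study's methods give a nominal number of reads per sample, but the number behind each library's values is unknown. Gene FPKM were 0.194 to 1.63 times the summed FPKM of the gene's transcripts (median 0.766), so levels of different genes compare only roughly.

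Groups followed the genotype and surgery labels. Kidneys were numbered within groups in accession order. A pseudocount of 1 was added, and limma 3.58.1 in R 4.3.3 fitted 1 mean per group on log2(FPKM + 1) over all 20 kidneys, with a trended prior and Benjamini-Hochberg adjustment over all genes or all transcripts. A filter at a group mean of 0.5 FPKM removed 0 genes. The fit was tested on simulated data. Summaries, figures and sequences used Python 3.11.15, pandas 2.3.3, numpy 2.4.6, matplotlib 3.10.9 and Biopython 1.88.

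The 46 genes and the lists were chosen with earlier results of these data known. Genes named with values are, per class, the 4 with the largest called change after UUO, every gene not called in 1 or both genotypes after UUO, every gene called between genotypes, *Hao2*, *Cat*, *Cpt1a*, *Acaa1a*, *Acaa1b* and 3 regulators, and the 3 largest changes each way of other pathway genes, some of which are not reported here; *Acadm*, *Acadl* and other members were added after their values were seen. Markers, with listed genes measured, were proximal tubule (20), loop of Henle, distal and collecting duct (12, of which 8 and 7 fell in the 2 genotypes after UUO), injury (8), macrophage (12), fibroblast (10), fat (10), skeletal muscle (0), adrenal (5), urothelium (7), liver (4, all of which fell in both genotypes), and male-high (7, of which 6 and 7 fell) and female-high (3) kidney genes. The alternatives tried were upper quartile rescaling, quantile normalization, array weights, 0.1 as the pseudocount, 1 FPKM as the filter, a fit without the groups not compared, an F-test modelled on Ballgown (with a library's sum of log2 values up to its upper quartile as a covariate), the identifier number series as a covariate, removal of a trend on transcript length, the study's threshold, and leaving out each kidney.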

Additional observations from a re-analysis of the deposited data

Results flagged for a closer look

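A kidney stood far from the other 4 of its group in 10 of 184 sets of 5 values (46 genes in 4 groups), by a gap to its nearest neighbour of more than 0.71 of the range of the group. Chance flags about 1 in 20 such sets, which is close to the number found.

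Of the 10, 2 concern KDM6A TubKO UUO kidney 2, which was high for *Slc25a20* (18.8 against 11.9 to 12.9 FPKM, gap 0.828 of the range) and for *Dao* (62.0 against 36.3 to 41.0 FPKM, gap 0.773). KDM6A Ctrl sham kidney 1 was high for *Etfdh* (43.8 against 32.2 to 34.2 FPKM, gap 0.811) and low for *Dao* (79.3 against 101 to 110 FPKM, gap 0.738). KDM6A Ctrl UUO kidney 2, the library rich in urothelium markers, was high for *Acaa2* (88.9 against 55.2 to 62.6 FPKM, gap 0.737) and low for *Pex5* (8.30 against 10.1 to 10.7 FPKM, gap 0.791). KDM6A Ctrl UUO kidney 5, the library with adrenal and fat markers, was low for *Pex11a* (12.9 against 17.0 to 18.3 FPKM, gap 0.794). In KDM6A TubKO sham mice, kidney 3 was low for *Cpt2* (60.1 against 70.4 to 74.1 FPKM, gap 0.756), and kidney 2 was high for *Eci2* (21.4 against 17.4 to 18.4 FPKM, gap 0.724). In KDM6A TubKO UUO mice, kidney 4 was low for *Pex10* (2.44 against 3.11 to 3.40 FPKM, gap 0.727).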

How the results depend on the processing

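After UUO, the number of members that fell stayed between 40 and 46 in each genotype under the rescalings, the other filter and pseudocount, the covariate fits and every removal of 1 kidney, was 32 and 34 at the study's threshold, and was 0 in both genotypes in the Ballgown-like test, whose covariate does not overlap between the surgeries. That test turned the change positive in KDM6A Ctrl mice for *Ehhadh* (0.24), *Acaa1b* (0.85), *Amacr* (1.35), *Cat* (0.14), *Pex2* (0.15) and *Pex13* (0.079) and negative for *Pex19* (-0.22), and positive in KDM6A TubKO mice for *Slc25a20* (0.53), *Crat* (1.09), *Etfb* (1.91), *Acaa1b* (0.98), *Acaa1a* (1.48), *Pex11a* (1.02), *Pex10* (0.43) and *Pex19* (0.056). In KDM6A Ctrl mice *Pex6* and *Pex19* became negative under upper quartile rescaling (-0.26 and -0.20) and quantile normalization (-0.33 and -0.14). Array weights gave 0.02 for *Acaa1a* and -0.0045 for *Pex6*. Without 1 kidney, *Acaa1a* ranged from -0.099 to 0.043, *Pex6* from -0.068 to 0.037 and *Pex19* from -0.010 to 0.12 there.

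Between genotypes, the 2 rises in sham kidneys became 0 under quantile normalization and in the Ballgown-like test, and 1 with only the compared groups, with the number series, without the length trend and at the study's threshold, but 3 with array weights (0 to 2 without 1 kidney). The 0 falls there became 1 with a pseudocount of 0.1, a filter at 1 FPKM or quantile normalization and 3 with array weights (0 to 2 without 1 kidney). The 2 falls in UUO kidneys became 1 with a pseudocount of 0.1 and 0 under upper quartile rescaling, with only the compared groups, with array weights and in the Ballgown-like test, but 3 under quantile normalization (0 to 7 without 1 kidney). The interaction gave 1 at the study's threshold and 0 to 2 without 1 kidney. The causes were not tested, and the fit of only the compared groups was not run for the interaction, which needs all 4. No paired analysis was possible because the labels give no replicate numbers shared between groups. The number of fragments behind each value is unknown, so its effect on genes with low values such as *Pex10* cannot be given.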

Other observations

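KDM6A Ctrl sham kidneys 1 and 4 stood together for several of these genes. *Acaa1b* was at 345 and 336 FPKM in them and at 139.9 to 169.6 FPKM in the other 3, *Acaa2* at 207 and 221 against 115 to 135 FPKM, and *Ehhadh* at 538 and 350 against 240.1 to 268 FPKM. The pair was chosen after the values were seen, and no test was run on it. *Amacr* was lowest in the same pair, at 37.1 and 67.6 FPKM against 106 to 145 FPKM. The pair also stood apart in the lists of female-high and male-high kidney genes. These lists are not wholly outside these pathways. *Cyp4a14*, of the female-high list, encodes a fatty acid hydroxylase, and *Acsm3*, of the male-high list, is among the further mitochondrial fatty acid genes named above. Female-high kidney genes summed to 686 and 470 FPKM, against 42.5 to 153 FPKM in the other 3. Male-high kidney genes summed to 1160 and 1270 FPKM, against 1700 to 1940 FPKM.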
